A study of Mus musculus with 2 samples.

Results

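Imprinted genes were examined in 2 RNA-seq libraries labelled as mouse retina. The set held 36 genes, named from knowledge of mouse imprinting and found by symbol in both count tables, of 52636 genes in all. By the parental copy from which they are known to be transcribed, 17 were maternally expressed and 19 paternally expressed, and they fell into 16 domains or lone loci. The study compared wild-type C57BL/6 mice (WT) with C57BL/6 mice in which the microRNA gene Mir29a was knocked out (KO), all 8 weeks old and under no treatment named in the labels. Each group was 1 library, made from the pooled retinas of 3 mice. How the knockout was made, and whether it acts in every cell, is not given in the sources used here. With 1 library per group there is no replicate check and no p-value. Every difference below is therefore between these 2 libraries, each called by its label.

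An imprinted gene is transcribed mainly from the copy inherited from the mother or from the copy inherited from the father. The choice is set in the germ line by DNA methylation at an imprinting control region, and clustered genes share 1 such region, often with a long noncoding RNA. Many imprinted genes act on fetal growth and are known to decline in most organs after birth. In the developing retina, the cell cycle inhibitor Cdkn1c and the zinc finger factor Plagl1 are known for limiting the number of progenitor divisions. The counts here are not split by allele, so the parental class of each gene is background and was not measured.

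Counts summed to 26805902 in the WT-labelled library and 24876925 in the KO-labelled library, so a count of 0 allows a level of up to 0.112 and 0.121 CPM (the count scaled to a common library total). RNA of the labelled tissue was scarce. Of 30 retinal neuron markers, 16 and 17 had no count, 3 reached 50 counts, and their sum was 54.9 CPM (WT) and 58.0 CPM (KO), whereas 15 fibroblast markers summed to 26745 and 28401 CPM. Macrophage markers differed most between the libraries, with sums of 391 and 1512 CPM. Of 13 measured members, 13 were more than 2-fold higher in the KO-labelled library, against 4.47% of all genes. At least Itgam (8 and 81 counts) reached 50 counts only in the KO-labelled library, where it is higher. Of 9 Mueller glia markers, 5 reached 50 counts and 0 of these passed 2-fold in either direction (4618 and 5240 CPM summed). Vim alone held 3677 and 4381 CPM of these sums, so they do not measure Mueller glia content. Endothelial markers were higher for 5 of 8 (28.7 and 56.7 CPM summed). Among them Kdr (8 and 58 counts) and Pecam1 (38 and 104 counts) likewise entered through the KO-labelled library alone. Pericyte and smooth muscle markers passed 2-fold in neither direction (348 and 340 CPM). Xist was counted 4288 times in the WT-labelled library and 0 times in the KO-labelled library, and 4 of 4 Y-linked genes had more than 2-fold higher CPM with the KO label, so the makeup of the pools by sex differed. Marker content and sex moved with the genotype label throughout, and their part in the results below was not tested. In a bulk library, fewer cells of a type and less RNA per cell cannot be told apart.

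Levels of the imprinted genes differed widely. The order between genes is given by the authors' FPKM, which is per length of gene. H19, the maternally expressed noncoding RNA that hosts miR-675, stood at 1460 FPKM in the WT-labelled library and 839 FPKM in the KO-labelled library, within the top 0.145% and 0.251% of detected genes. It took 60.0% and 54.7% of all counts of the imprinted genes. The tetraspanin gene Cd81 came next in both libraries, with 193 and 201 FPKM, and Cdkn1c followed with 178 and 74.0 FPKM. Cd81 and Cdkn1c were close in the WT-labelled library and well apart in the KO-labelled library.

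Among paternally expressed genes the necdin gene Ndn (29.3 and 20.3 FPKM), the zinc finger gene Peg3 (25.5 and 9.98 FPKM), the retrotransposon-derived gene Peg10 (24.1 and 20.2 FPKM) and the neuronatin gene Nnat (20.7 and 11.4 FPKM) stood highest in the WT-labelled library. In the KO-labelled library Ndn and Peg10 headed the class, and Impact (14.4 FPKM) stood above Nnat and Peg3. A middle group by level in the WT-labelled library, from the receptor adaptor gene Grb10 (14.0 and 10.3 FPKM) down to the coat protein gene Copg2 (6.60 and 8.98 FPKM), held Impact, Dlk1, Slc22a18, Gnas, Sgce, Plagl1 and Peg13 as well.

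The low end held 11 genes that did not reach 50 counts in either library. The transcription factor gene Klf14, the MAGE family gene Magel2 and Snurf, the reading frame upstream of Snrpn, had 0 counts in both. Zdbf2 had 2 and 0 counts, Asb4 1 and 1, Ascl2 4 and 3, Kcnq1 5 and 2, Nap1l5 5 and 5, Phlda2 7 and 7, Rtl1 9 and 12, and Usp29 15 and 12. No difference was detectable for these at this depth, since the counting intervals of those with a count in both libraries all held equality. All exonic bases of Snurf are shared with other annotated genes, Snrpn among them (100% of its bases). How reads in shared exons were counted is not given in the sources used here, so its count of 0 does not show that the transcript is missing.

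**Figure D1:**
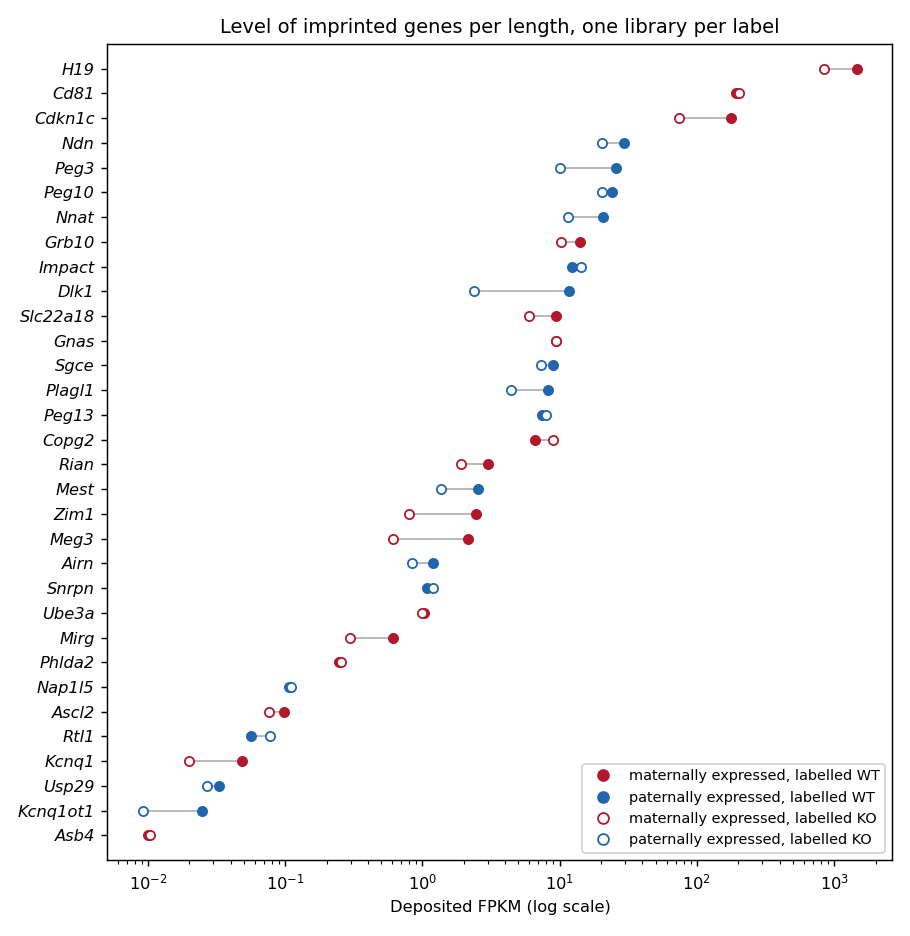
Deposited FPKM on a log axis for the 32 imprinted genes with a count in both libraries, with filled points for the WT-labelled library, open points for the KO-labelled library, red for maternally and blue for paternally expressed genes. H19 lies highest in both libraries. Dlk1, Meg3, Zim1, Peg3 and Cdkn1c show wide gaps with the open point to the left, as do the sparsely counted Kcnq1ot1 (0.0248 and 0.00921 FPKM) and Kcnq1 (0.0482 and 0.0200 FPKM).

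Of the 36 genes, 25 had 50 or more counts in the higher library and entered the comparison. Kcnq1ot1 entered through the WT-labelled library alone (53 and 19 counts). The log2 ratio (KO over WT) uses CPM plus 0.5 in each library, and a gene was called lower or higher at an absolute log2 ratio of 1, which is 2-fold. By this rule 5 of 25 genes were lower in the KO-labelled library, 0 were higher and 20 were neither, whereas 2.82% of all 12382 genes that entered were lower and 4.47% were higher. The 5 were Dlk1, Meg3, Zim1, Peg3 and Cdkn1c, and for each the whole 95% exact (Clopper-Pearson) counting interval lay beyond 2-fold. These intervals, and the limits for a count of 0, hold no more than counting error, because the reads carry no molecular identifiers and several may stem from 1 molecule. The median log2 ratio was -0.57 for the 25 genes and 0.06 for all genes. Of the 25 counting intervals, 18 lay below equality, 4 above it and 3 held it. The same share over all genes is not given here. At this depth even small differences leave equality, such as Cd81 at 1.09-fold higher (1.06 to 1.11). These numbers therefore do not set imprinted genes apart.

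**Figure D2:**
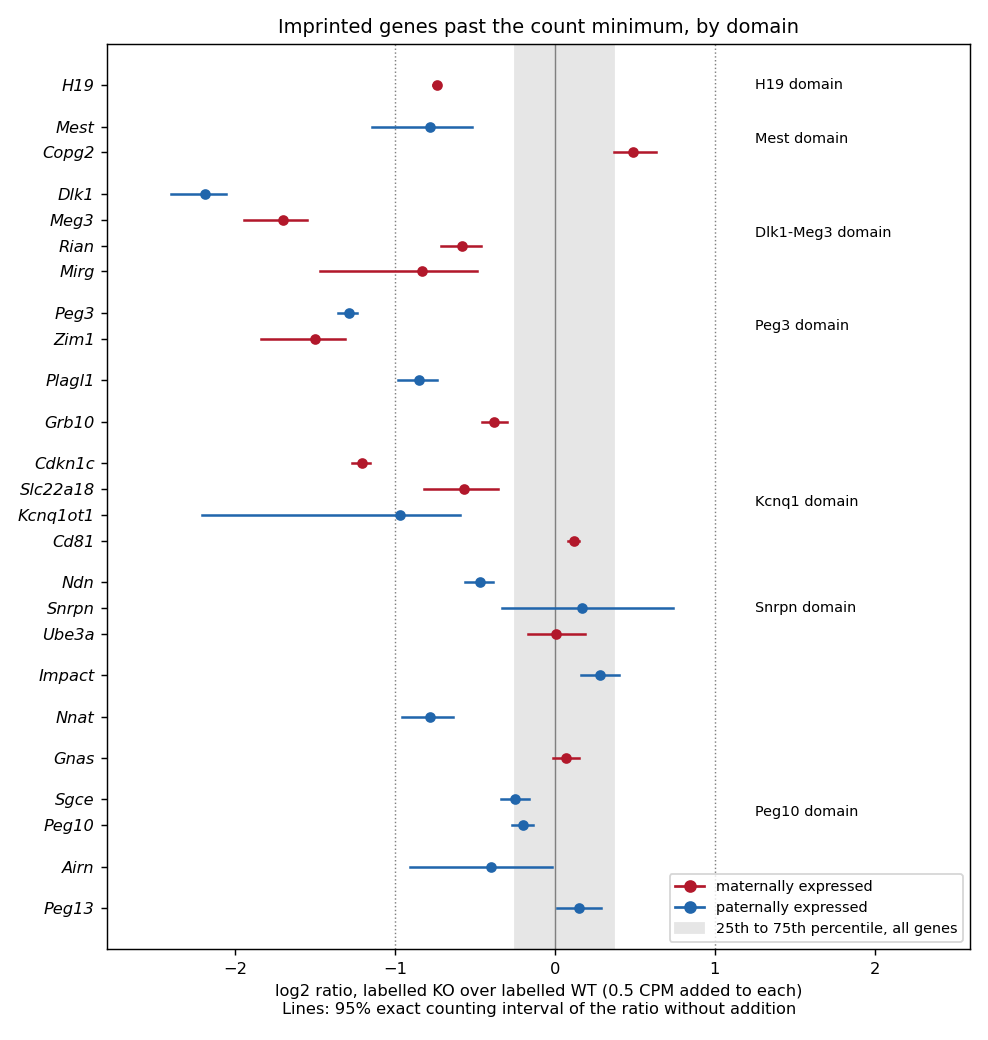
Log2 ratio of the KO-labelled library over the WT-labelled library for the 25 imprinted genes that entered, grouped by domain, with 95% exact counting intervals as lines and the 25th to 75th percentile of all genes (-0.25 to 0.37) as a grey band. Dlk1 lies farthest to the left at -2.19, the Dlk1-Meg3 and Peg3 domains lie wholly left of the band, and Copg2 at 0.49 lies to its right.

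The Dlk1-Meg3 domain on chromosome 12 was the domain with the lowest single value. Dlk1, a non-canonical Notch ligand transcribed from the paternal copy (109452823 to 109463336, GRCm38), had 62.5 CPM in the WT-labelled library and 13.3 CPM in the KO-labelled library. It was 4.70-fold lower (4.17 to 5.30). Meg3, the maternally transcribed long noncoding RNA that begins 88178 bases further on, had 36.4 and 10.9 CPM and was 3.35-fold lower (2.93 to 3.85). Both were lower, although they come from opposite parental copies.

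The 2 noncoding RNAs that follow Meg3 on the same strand were lower by less. Rian, which hosts small nucleolar RNAs, had 1388 and 858 counts (1.5-fold lower, 1.38 to 1.64). Mirg, which hosts a run of microRNAs, had 112 and 53 counts (1.96-fold lower, 1.4 to 2.77). The interval of Rian does not overlap that of Meg3. Rtl1, the retrotransposon-derived gene read from the paternal copy against these noncoding RNAs, had 9 and 12 counts and was too shallow to compare.

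The promoters of the genes that were lowest are shown to let their sequence be compared. The 250 bases before each start are from RefSeq (GRCm38.p6), on the gene's strand, with every CpG, the dinucleotide that imprinting marks by methylation, in capitals. Dlk1 lies at chr12:109452573-109452822 on the plus strand and Meg3 at chr12:109540746-109540995 on the plus strand. Peg3 lies at chr7:6730420-6730669 and Zim1 at chr7:6696433-6696682, both on the minus strand.
Dlk1: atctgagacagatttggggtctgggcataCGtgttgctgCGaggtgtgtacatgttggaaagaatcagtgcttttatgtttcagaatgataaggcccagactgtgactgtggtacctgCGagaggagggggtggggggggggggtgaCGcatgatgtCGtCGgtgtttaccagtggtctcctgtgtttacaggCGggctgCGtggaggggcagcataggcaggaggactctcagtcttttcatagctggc
Meg3: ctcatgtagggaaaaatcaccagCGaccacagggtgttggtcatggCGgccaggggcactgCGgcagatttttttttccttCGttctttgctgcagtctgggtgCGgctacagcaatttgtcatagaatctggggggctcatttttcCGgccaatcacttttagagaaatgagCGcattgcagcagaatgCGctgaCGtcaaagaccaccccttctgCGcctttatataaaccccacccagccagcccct
Peg3: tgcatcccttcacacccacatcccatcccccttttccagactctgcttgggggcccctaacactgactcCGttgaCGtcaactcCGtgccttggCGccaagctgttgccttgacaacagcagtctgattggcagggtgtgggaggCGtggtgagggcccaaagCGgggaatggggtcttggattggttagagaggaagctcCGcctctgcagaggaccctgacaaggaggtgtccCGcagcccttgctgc
Zim1: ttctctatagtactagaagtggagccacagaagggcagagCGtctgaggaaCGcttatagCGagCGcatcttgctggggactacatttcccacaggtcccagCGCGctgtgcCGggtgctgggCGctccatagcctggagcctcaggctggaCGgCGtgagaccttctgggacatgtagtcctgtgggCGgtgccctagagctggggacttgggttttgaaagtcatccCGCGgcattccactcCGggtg
These stretches hold 8 CpG for Dlk1, 10 for Meg3, 8 for Peg3 and 14 for Zim1. The hexamer TGCCGC, bound by the zinc finger protein ZFP57 when methylated, was searched on both strands. It occurs once on the reverse strand in Meg3 and in Zim1, and these letters are not in the stretches of Dlk1 and Peg3.

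Promoters of imprinted genes were matched by symbol for 27 of 36 genes. With the 50 bases after the start included, 40.7% of these genes (11 of 27) held TGCCGC in a window of 300 bases, against 13.1% of 27025 genes in RefSeq. Among genes with 10 or more CpG in a window the shares were 47.4% of 19 and 24.4% of 12388. By parental class the hexamer was found for 4 of 13 maternally expressed genes (Copg2, Grb10, Meg3 and Zim1) and 7 of 14 paternally expressed genes (Mest, Nap1l5, Nnat, Plagl1, Zdbf2, and Snrpn with Snurf, which share 1 window). The median number of CpG in the richest window was 23.0 for maternally and 12 for paternally expressed genes, against 8.00 for all genes. A match is a description of letters and shows no binding.

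The Peg3 domain on proximal chromosome 7 was lower for both genes that entered. Peg3, a paternally expressed zinc finger factor (6703892 to 6730431), had 321 CPM in the WT-labelled library and 131 CPM in the KO-labelled library, 2.46-fold lower (2.36 to 2.56). Zim1, its maternally expressed neighbour, had 18.9 and 6.35 CPM, 2.98-fold lower (2.49 to 3.58). The ubiquitin protease gene Usp29 starts 147 bases from Peg3 on the opposite strand, and it had 15 and 12 counts against 8617 and 3252 for Peg3. The pair that share this start region thus differed by far in count in both libraries.

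Within the Kcnq1 domain on distal chromosome 7 the genes differed. Cdkn1c, which encodes the cyclin-dependent kinase inhibitor p57Kip2 (143458339 to 143461050), had 344 and 148 CPM, 2.32-fold lower (2.23 to 2.41). Slc22a18, a transporter-like gene, had 405 and 250 counts, 1.5-fold lower (1.28 to 1.77). Kcnq1ot1, the paternally expressed RNA read against Kcnq1, had 1.98 and 0.764 CPM (2.59-fold lower, 1.51 to 4.63), with a log2 ratio of -0.97 after the addition of 0.5 CPM. It reached 50 counts only in the WT-labelled library, where it is higher. On FPKM with 0.5 added its log2 ratio was -0.04. The added 0.5 is far above its FPKM (0.0248 and 0.00921), so that value says little about the difference.

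Cd81 lies in the same domain but is imprinted mainly in placenta. It had 525 and 569 CPM, a log2 ratio of 0.12. Of the exonic bases of Cdkn1c, 30.7% are shared with an antisense gene model (Gm44732), and strand was not marked in these libraries. That model had 0 counts in both, which does not show how reads in the shared bases were counted.

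H19, on distal chromosome 7 (142575529 to 142578143), had 3275 CPM in the WT-labelled library and 1955 CPM in the KO-labelled library. It was 1.67-fold lower (1.66 to 1.69), short of 2-fold. By count it ranked 21 among all genes in the WT-labelled library and 35 in the KO-labelled library. H19 made up most of the difference in the summed level of maternally expressed genes, as described below.

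The Mest domain on chromosome 6 lies close to the targeted microRNA gene. Mest, a paternally expressed hydrolase-fold gene that contains Mir335, ends 314195 bases from Mir29a, Copg2 lies 165866 bases from it and Klf14 103582 bases. Mest had 253 and 132 counts (9.44 and 5.31 CPM), 1.78-fold lower in the KO-labelled library (1.44 to 2.21). Copg2 had 856 and 1124 counts (31.9 and 45.2 CPM), 1.41-fold higher (1.29 to 1.55). The genes of this domain thus went opposite ways, and Klf14, the closest to Mir29a, had no count. Mest and Copg2 overlap at their 3' ends on opposite strands, with 23.1% of the exonic bases of Mest and 17.8% of those of Copg2 shared, so reads from there cannot be told apart. Other genes within 500 kb of the domain had a median log2 ratio of 0.32 (9 genes, -0.39 to 2.62). The highest of them, and of the neighbours of any domain, was the long noncoding RNA gene Lncpint at 2.62, named after its value was seen.

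The mature microRNAs of this locus and those inside Mest and H19 are shown to set their seeds (bases 2 to 8, in capitals) beside one another. They are from RefSeq (GRCm38.p6).
mmu-miR-29a-3p: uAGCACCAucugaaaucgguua
mmu-miR-29b-3p: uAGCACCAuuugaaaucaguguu
mmu-miR-335-5p: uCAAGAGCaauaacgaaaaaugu
mmu-miR-675-5p: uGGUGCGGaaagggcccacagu
The first pair share the seed AGCACCA, and the other two have different seeds. Mir29a, Mir29b-1, Mir335 and Mir675 each had 0 counts in both libraries. Hairpins are seldom counted in libraries of this kind, so these values check neither label.

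Imprinted genes were then searched for the miR-29 target heptamer TGGTGCT in the longest annotated 3' UTR. Among those that entered and had a 3' UTR, 3 of 18 (16.7%) held it, against 17.4% of 11582 genes, a share near that of all genes. The 3 were Mest (log2 ratio -0.78), Zim1 (-1.50) and Peg10 (-0.20). When any annotated 3' UTR was searched, 5 of 18 (27.8%) held it, against 19.6% of all genes, the added members being Peg3 (-1.29) and Gnas (0.07). The sites are shown in 30 bases of the transcript strand, with the heptamer in capitals, from GENCODE M21 transcripts. Mest lies at chr6:30748288-30748317 and Peg10 at chr6:4758853-4758882, both on the plus strand. The sites of Zim1, on the minus strand, lie at chr7:6676070-6676099, chr7:6675010-6675039 and chr7:6674729-6674758.
Mest: cctaagagcaaaTGGTGCTgaatacttttt
Peg10: gagtcaaggaggTGGTGCTggtgtgagttc
Zim1 first site: acctatcaagcaTGGTGCTgaactctttat
Zim1 second site: ccttatcaagtgTGGTGCTgaactctgtat
Zim1 last site: acctatcaaataTGGTGCTggaatctttac
The 3 windows of Zim1 resemble each other, with 22 to 25 of 30 bases identical between pairs. No site is followed by A. Usp29 also holds the heptamer but did not reach 50 counts.

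The remaining loci held genes on both sides of 0. Plagl1, the zinc finger factor known to act on other imprinted genes, had 61.2 CPM in the WT-labelled library and 33.7 CPM in the KO-labelled library, 1.82-fold lower (1.67 to 1.97). Nnat, a small membrane protein gene of neurons and endocrine cells, had 35.7 and 20.6 CPM, 1.74-fold lower (1.56 to 1.94). Grb10, which binds the insulin and IGF1 receptors, had 120 and 92.3 CPM, 1.30-fold lower (1.23 to 1.37). These 3 were lower beyond counting error and short of 2-fold.

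In the Snrpn domain of central chromosome 7 the values split. Ndn had 102 and 73.6 CPM, 1.39-fold lower (1.31 to 1.48). Snrpn, which encodes a splicing protein, had 59 and 63 counts, and the ubiquitin ligase gene Ube3a 539 and 503 counts, and both intervals held equality. Snrpn shares 34.1% and Ube3a 27.3% of exonic bases with other annotated genes.

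Differences were small at the Peg10 domain of proximal chromosome 6. Peg10 was 1.15-fold lower (1.10 to 1.21) and Sgce, the sarcoglycan gene that starts 99 bases from it on the opposite strand, 1.19-fold lower (1.12 to 1.26). The noncoding RNA Airn of chromosome 17 had 108 and 73 counts (1.37-fold lower, 1.01 to 1.87). Gnas, the locus of the stimulatory G protein subunit, had 99.3 and 104 CPM, and its interval held equality. Impact, an inhibitor of the kinase GCN2, was 1.22-fold higher (1.12 to 1.32) and the noncoding RNA Peg13 1.11-fold higher (1.01 to 1.22). Peg13 is annotated as lying in an intron of another gene on the same strand. Reads from unspliced RNA of that gene cannot be told apart from those of Peg13.

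Maternally and paternally expressed genes were set side by side. Of 12 maternally expressed genes that entered, 3 were lower by 2-fold (Meg3, Zim1 and Cdkn1c), 0 higher and 9 neither, with a median log2 ratio of -0.57. Of 13 paternally expressed genes, 2 were lower (Dlk1 and Peg3), 0 higher and 11 neither, with a median of -0.47. The log2 ratio was below 0 for 8 of 12 and 10 of 13, against 45.0% of all genes. Both classes thus lay below the median of all genes, and their ranges overlapped over most of their length (-1.70 to 0.49 and -2.19 to 0.28). With 1 library per group the difference between classes was not tested.

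Summed over members, maternally expressed genes held 4542 CPM in the WT-labelled library and 2999 CPM in the KO-labelled library, 1.51-fold lower (1.5 to 1.53). Paternally expressed genes held 918 and 579 CPM, 1.59-fold lower (1.55 to 1.62). Without H19 the maternal sum was 1267 and 1044 CPM, 1.21-fold lower (1.19 to 1.23). Cd81, which did not share in the decrease, makes up much of that remaining sum.

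Both classes held genes on both sides of 0, with 8 of 12 maternally and 10 of 13 paternally expressed genes below it. Maternally expressed genes were divided by whether the copy in use is the same in most tissues or depends on tissue. This property is known from earlier work, and the division was made with the results here already known. The contrast between these kinds is therefore a description and no test. All 19 paternally expressed genes were scored as the first kind, so that class was not divided. All 7 maternally expressed genes of the first kind that entered (H19, Meg3, Rian, Mirg, Zim1, Cdkn1c and Slc22a18) lay below 0, and their median log2 ratio was -0.83. Of the 5 genes whose imprint depends on tissue (Copg2, Grb10, Cd81, Ube3a and Gnas), 1 was below 0, and their median was 0.07. Of protein-coding genes alone, the maternal median was -0.19 and the paternal median -0.62, so the order of the classes depends on which members are taken. The 7 long noncoding members that entered had a median of -0.74, with 1 lower by 2-fold, while all 238 long noncoding genes had a median of -0.10, with 3.36% lower.

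**Figure D3:**
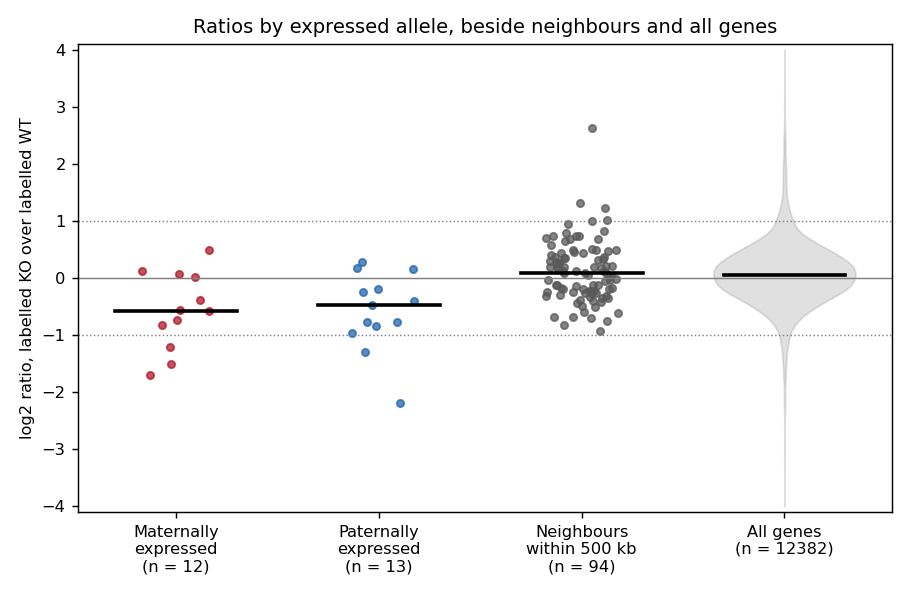
Log2 ratios of 12 maternally expressed genes, 13 paternally expressed genes, 94 other genes within 500 kb of any imprinted gene, and the distribution of all 12382 genes (drawn within ±4), with black bars at the medians and dotted lines at 2-fold. Both imprinted classes have medians below 0 and points under the lower line. Of the 94 neighbours 0 lie under it, beside 2.82% of all genes.

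Other genes of the same regions were counted beside the imprinted genes. Of 94 genes within 500 kb of an imprinted gene that entered, 0 were lower by 2-fold and 5 (5.32%) higher, beside 2.82% and 4.47% of all genes. Their median log2 ratio was 0.09, with 42 below 0. They include genes of the further imprinted lists given below, such as Pon2, Atp10a and Nap1l4. In a window of 2000 kb, 12 of 330 (3.64%) were lower. The 930 genes of chromosome 7, which holds 4 of the domains, had a median of -0.11. Neighbours of the Peg3 domain had a median of -0.26 (7 genes, -0.69 to 0.74) beside -1.40 for its imprinted genes, and neighbours of the Kcnq1 domain 0.12 (15 genes) beside -0.77. At some loci most neighbours lay below 0. The 10 neighbours of Nnat had a median of -0.19, beside -0.78 for Nnat. The 8 neighbours of H19 ran from -0.93 to 1.23 with a median of -0.35, and 6 of them were below 0. The lowest of these, Prr33 (-0.93) and Ifitm10 (-0.76), named after their values were seen, lay below H19 (-0.74). At the Dlk1-Meg3 domain only 3 neighbours entered, all below 0, with values from -0.71 to -0.35, the lowest being Begain, which is itself known as imprinted.

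Imprinted genes outside the 36 were counted from 2 further lists. Of 7 paternally expressed genes that entered, of 14 listed, 0 passed 2-fold in either direction, and their median log2 ratio was -0.44. Dio3, the thyroid hormone deiodinase gene at the far end of the Dlk1-Meg3 domain, had 43.7 and 23.0 CPM (log2 ratio -0.91). Begain had 7.95 and 4.66 CPM (-0.71) and the phosphatase gene Inpp5f 269 and 406 counts (0.68). The amino acid transporter gene Slc38a4 had 56 and 21 counts (-0.95, and 2.47-fold lower, 1.47 to 4.30, without the added 0.5 CPM). It reached 50 counts only in the WT-labelled library, where it is higher. Of 12 maternally expressed genes that entered, of 21 listed, 0 were lower and 1 (8.33%) was higher, against 2.82% and 4.47% of all genes, and their median was 0.13. The higher gene was Gatm, an enzyme of creatine synthesis (21 and 103 counts), which reached 50 counts only in the KO-labelled library, where it is higher. It was followed by Pon2 (0.94) and Atp10a (0.58), while H13 (0.05) and Nap1l4 (0.46) had the most counts. Many genes of this last list are known as imprinted mainly in placenta or brain.

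Genes that maintain imprints were counted next. Of 23 listed factors 20 entered and 0 passed 2-fold in either direction, against 2.82% lower and 4.47% higher among all genes, and the median log2 ratio was 0.08. Zfp57, whose protein guards methylation at control regions, had 133 and 63 counts and was 1.96-fold lower (1.44 to 2.69, log2 ratio -0.85), and the DNA methyltransferase gene Dnmt3a 570 and 807 (0.60). Uhrf1, which recruits the maintenance methyltransferase, was at -0.54, the histone methyltransferase gene Ehmt2 at -0.49 and the ZFP57 partner gene Trim28 at -0.31.

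Since several imprinted genes restrain growth, 20 proliferation genes were counted too. Of these, 1 was higher by 2-fold (Bub1, 47 and 105 counts) and 1 lower (Mcm5, 1742 and 723 counts), 5% each way and near the 4.47% and 2.82% of all genes. Bub1 reached 50 counts only in the KO-labelled library, where it is higher. The median log2 ratio was -0.09. Aurkb was at -0.79 and Pcna at 0.55. Fibroblast markers, the most abundant marker list, had a median of -0.05 with 4 of 15 (26.7%) lower by 2-fold and 0 higher. That share lower lay far above the 2.82% of all genes, as did the 5 of 25 for imprinted genes. Pi16 (log2 ratio -2.68), Fbln1 (-1.11) and Dpt (-1.10) were among the lower fibroblast markers, while Fn1 was at -0.05 and Igfbp4 at 0.20. The proliferation and fibroblast lists each held genes on both sides of 0, and their part in the result was not tested.

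The ratio also varied with base composition. Over 12371 genes the log2 ratio and the GC content of the longest transcript had a Spearman's rho of -0.441, as a description across genes of 2 libraries. The median log2 ratio ran from 0.31 in the lowest of 10 bins by GC content to -0.31 in the highest. The imprinted genes had a median GC content of 47.2%, below the 49.9% of all genes that entered. After the medians of bins by GC content and then by length were subtracted, 21 of the 25 genes were below 0 and their median was -0.58. Before it, 18 of the 25 and 45.0% of all genes were below 0. The correction also moved the median of all genes from 0.06 to 0.00. The share of all genes below 0 after it is not given here. By class, 2 of 12 maternally and 4 of 13 paternally expressed genes were then lower by 2-fold, in place of 3 and 2. Of all genes, 2.90% were then lower. Dlk1, Meg3, Peg3 and Zim1 stayed past 2-fold, and Cdkn1c, with a GC content of 59.4%, moved to -0.89. Plagl1 (-1.04) and Kcnq1ot1 (-1.27) then passed 2-fold. Impact (-0.09), Snrpn (-0.08) and Ube3a (-0.29) moved from above to below 0.

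**Figure D4:**
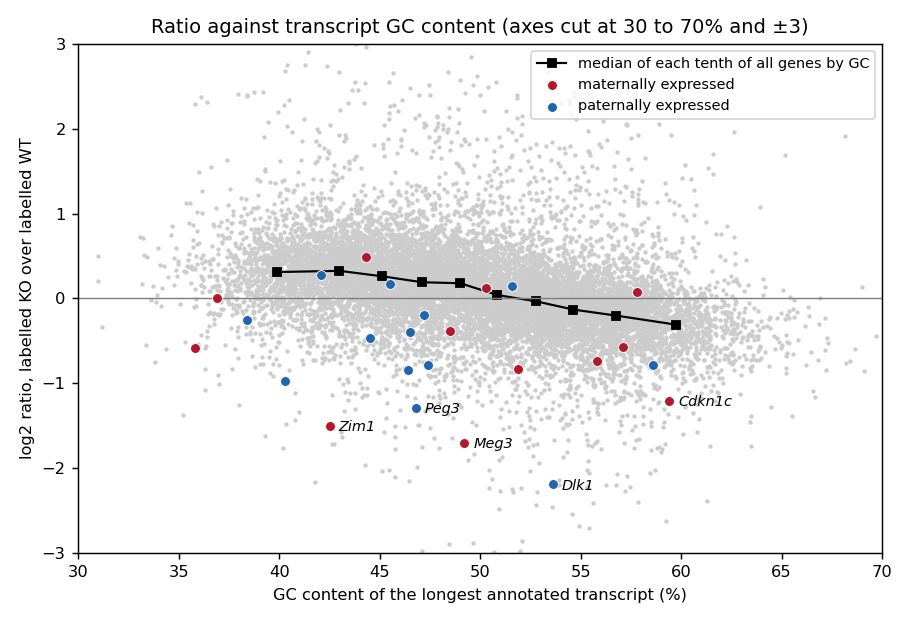
Log2 ratio against GC content of the longest annotated transcript for all genes (grey), with the median of each of 10 bins by GC content (black squares) and the imprinted genes in red (maternal) and blue (paternal). The named points Dlk1, Meg3, Zim1, Peg3 and Cdkn1c lie under the black line at GC contents from 42.5% to 59.4%.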

How the data were processed

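RNA was sequenced from 1 library of WT and 1 of KO mice, each a pool of retinas from 3 mice, after rRNA removal with a kit that does not mark strand, per the labels' protocols. The submitters' processing notes name HISAT2 and the mouse builds mm10 and GRCm38. Which program counted reads, with what annotation and strand setting, and how FPKM was scaled, is not given in the sources used here. Per the file headers, the authors deposited a whole-number read count and an FPKM for each gene.

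CPM is the count relative to the sum of its table, and folds are CPM ratios with 95% Clopper-Pearson intervals. The log2 ratio used 0.5 CPM added to each library, for genes that reached 50 counts in at least 1 library. The 4 genes whose ratio of count to FPKM differed between tables by more than 1%, none of them an imprinted gene listed here, were left out. Positions, exons and 3' UTRs came from GENCODE M21. Members and lists were chosen with earlier results of these data known. All 36 members were named, and from each other list, the 3 genes farthest from a log2 ratio of 0 and at most 2 of highest mean CPM could be. A further 2 imprinted genes are not analysed here. Neighbours of a domain were other genes within 500 kb.

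Alternatives were edgeR's TMM and median-of-ratios scaling, a total without the most counted genes, other pseudocounts, count minimums and thresholds, the authors' FPKM, a GC and length correction in 10 bins each, and subsets of members. The calculation of folds and intervals was checked on simulated counts with counting error alone. These hold no spread between mice, so the check does not bear on the comparison of the groups. Scaling factors came from edgeR 4.0.16 in R 4.3.3, intervals from scipy 1.17.1 and tables from pandas 2.3.3 with numpy 2.4.6, under Python 3.11.15. Plots were drawn with matplotlib 3.10.9.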

Additional observations from a re-analysis of the deposited data

How the results depend on the processing

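No called gene among the imprinted genes changed sign under any alternative of scaling, pseudocount, count minimum, unit or composition that was run. Called genes were chosen for lying far from 0, so this says little. Members near 0 did change sign. Ube3a (0.01) was at -0.02 with TMM and -0.06 with median-of-ratios scaling. Impact (-0.09), Snrpn (-0.08) and Ube3a (-0.29) fell below 0 after the GC and length correction. The 5 lower genes stayed past 2-fold in all of these alternatives except Cdkn1c under the GC and length correction and Meg3 where only protein-coding genes were kept, since it is noncoding. The number lower was 11 of 25 at 1.5-fold (5 maternal and 6 paternal), against 8.88% of all genes. At 4-fold it was 1 of 25 (0 maternal and 1 paternal), against 0.468% of all genes. After the GC and length correction it was 2 of 12 maternally and 4 of 13 paternally expressed genes, against 2.90% of all genes. The medians were then -0.56 and -0.58, and the class with more lower genes changed. Without members that share any exonic base with another gene the number lower was 3 of 11, against 2.82% of all genes. Of these 3, 1 was maternal, and the paternal median was -0.32. With a minimum of 1 count the medians were -0.25 for all members, -0.31 for maternal and -0.25 for paternal genes, with 33, 16 and 17 of them measured. The paternal median was -0.62 with a minimum of 200 counts and -0.34 on FPKM with 0.5 added. On that scale Kcnq1ot1 was at -0.04, because its FPKM lies far below the 0.5 added. Kcnq1ot1 passed 2-fold with median-of-ratios scaling, with 0.1 CPM added and with the total taken without the most counted genes. Of protein-coding genes the medians were -0.19 (maternal) and -0.62 (paternal). Without tissue-dependent members the maternal median was -0.83, but that division was made with the results known. The heptamer was found in 6 of 28 members when any annotated 3' UTR was searched and in 4 of 28 in the longest. Of those that entered it was 5 of 18 (27.8%, all genes 19.6%) and 3 of 18 (16.7%, all genes 17.4%). The Mest value held under TMM scaling and the GC and length correction. No paired analysis was possible because each group has 1 library. Depth limits the 11 members under 50 counts, and with no replicates nothing here measures the spread between mice.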
